A study of Mus musculus with 3 samples.

Results

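The genes described here are Trp53, which encodes the transcription factor p53, and 38 genes known as p53 targets, read from spatial transcriptome sections of mouse thymus. The 39 genes were listed by their known place in the pathway, at a time when earlier results of these data were known. Each symbol matched exactly 1 of the 54838 genes in the count tables. There were 3 sections, from 3 female C57BL/6 mice. The sections labelled KO1308 (21 weeks) and KO1134 (17 weeks) came from Trp53-/- mice, which lack p53 in every cell, and 1 section came from a wild-type (WT) mouse of 17 weeks. The sources used here do not give the deleted exons of the knockout allele. The mutant and WT lines were bought from different suppliers and then intercrossed, with offspring genotyped by PCR. A sample table of the study lists under the name KO1308 depth figures like those of the section labelled KO1134, so which knockout mouse and age belong to which section is uncertain, while the genotype is the same for both. Permeabilisation was set a little longer for the knockout tissue than for the WT tissue. Genotype, mouse, capture area and permeabilisation cannot be told apart in a design with 1 WT section. No test between genotypes was made, since 1 WT section gives no spread between WT mice. Each section's value is given with an exact 95% Poisson interval, each ratio with an exact 95% conditional binomial interval, and both cover counting error only. The spread between the 2 knockout sections is the only measure of variation between mice, and both are set against the same WT section.

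The slides capture polyadenylated RNA on barcoded spots, and unique molecular identifiers (UMIs) count the captured molecules. Spots were summed into square bins of 27 µm, and bins with at least 300 detected genes were kept. This left 16140 tissue bins in KO1308, 12009 in KO1134 and 27104 in WT, with 17585464, 31120116 and 40575395 UMIs. A bin was called CD3-positive when at least 1 of Cd3d, Cd3e and Cd3g exceeded 2 on the natural-log scale of UMIs per 10000. There were 6380 CD3-positive bins in KO1308 (7139487 UMIs), 3382 in KO1134 (8540759 UMIs) and 17155 in WT (26761532 UMIs). A single CD3 UMI was enough in a shallow bin: 53.1% of the CD3-positive bins of KO1308, 18.8% of those of KO1134 and 28.1% of those of WT held just 1. A bin can hold several cells or parts of cells, so CD3-positive and other bins are classes of places and not cell types. Levels are given as CPM, a gene's UMIs scaled to the same total of UMIs per section (1e+06) over all bins of a class. A lower level in a class of bins can come from fewer cells that express a gene or from less RNA per cell, and the counts do not separate these.

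The p53 protein is held low in unstressed cells by Mdm2 and Mdm4, which bind it and mark it for destruction. DNA damage, nucleotide shortage and other stresses free it to bind DNA and switch on genes that halt the cell cycle (Cdkn1a), drive mitochondrial apoptosis (Bax, Bbc3, Pmaip1), repair DNA, adjust metabolism and, through Mdm2, Ccng1 and Ppm1d, turn p53 itself down again. Thymocytes are among the cells most prone to p53-dependent death, and mice without p53 most often develop thymic lymphoma. Most of these genes also have promoters and enhancers that respond to other factors, so a p53 target need not be silent without p53.

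The DNA element that p53 binds is built of decamers, 1 or more of which lie close to the start of many targets. RefSeq promoters (GRCm38.p6, 250 bases before to 50 bases after each start) were listed for 32 of the 39 genes, and 12 of these (37.5%) held an exact p53 decamer on either strand, against 9.55% of all 27025 genes in the table and 8.36% of all 32851 promoters. The 12 were Trp53, Mdm2, Ccng1, Ppm1d, Cdkn1a, Bax, Aen, Ei24, Polk, Sesn1, Abhd4 and Rap2b. Ccng1 and Cdkn1a also held an adjoining pair of decamers with at most 2 mismatches in 20 bases and intact cores (6.25% of the matched genes, against 0.392% of all genes). Since the list holds genes known for p53 binding, these shares describe it and are not a result of the sections. Pmaip1, Perp, Trp53inp1, Zmat3, Tnfrsf10b, Rrm2b and Xpc were not matched to a promoter. The stretches around the decamer are shown for 6 genes, chosen because they are well-known targets whose decamer lies outside annotated exons, with levels described below that run from Ccng1 and Sesn1, low in both knockout sections, to Bax, close to WT. Members above WT are not among them. Each is written 5′ to 3′ on the strand of its gene, and capitals mark the decamers. They lie on GRCm38 at chr11:40755432-40755501 on the minus strand (Ccng1), chr10:41887236-41887305 on the plus strand (Sesn1), chr10:117710905-117710974 on the minus strand (Mdm2), chr11:85311092-85311161 on the plus strand (Ppm1d), chr17:29090898-29090967 on the plus strand (Cdkn1a) and chr7:45467060-45467129 on the minus strand (Bax).
Ccng1: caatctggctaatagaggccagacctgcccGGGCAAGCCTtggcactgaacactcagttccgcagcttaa
Sesn1: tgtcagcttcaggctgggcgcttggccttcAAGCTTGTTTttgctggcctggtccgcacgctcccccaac
Mdm2: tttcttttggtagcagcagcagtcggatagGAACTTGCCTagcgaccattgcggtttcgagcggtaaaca
Ppm1d: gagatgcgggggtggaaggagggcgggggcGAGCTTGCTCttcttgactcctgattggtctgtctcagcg
Cdkn1a: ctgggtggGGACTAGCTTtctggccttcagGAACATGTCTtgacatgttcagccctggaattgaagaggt
Bax: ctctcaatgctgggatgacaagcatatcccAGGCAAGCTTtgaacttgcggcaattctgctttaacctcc

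Trp53 itself (chr11:69580359-69591873, plus strand) was low but still counted in both knockout sections. In CD3-positive bins its level was 25.2 CPM in KO1308 (interval 21.7 to 29.2, 180 UMIs), 18.1 CPM in KO1134 (15.4 to 21.2, 155 UMIs) and 80.1 CPM in WT (76.8 to 83.6, 2144 UMIs). The ratio to WT was 0.315 (0.269 to 0.367) in KO1308 and 0.227 (0.191 to 0.267) in KO1134. Each section was also cut into 4 parts at its median bin position in x and in y. The 4 parts of KO1308 lay between 21.7 and 29.8 CPM, those of KO1134 between 11.6 and 25.5 CPM and those of WT between 78.7 and 82.9 CPM, so the knockout and WT parts did not overlap. The other bins gave nearly the same levels, with 25.1, 16.6 and 79.6 CPM. Where along the transcript the remaining UMIs lay was not analysed here, so the level alone does not check the genotype label.

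Among the targets, 33 of 38 had a mean of at least 5 CPM over the 3 sections in CD3-positive bins. In KO1308, 4 of the 33 (12.1%) were at 0.5 of the WT level or lower, against 2.88% of all 13375 genes with that mean, and in KO1134 5 of the 33 (15.2%) were, against 7.51%. With no filter beyond 1 UMI in WT there were 5 of 38 in KO1308 and 6 of 38 in KO1134. Of all genes 19.0% and 23.0% were then that low, more than of the targets. Scaled to the median ratio of all genes, the count of KO1308 was 7 (4.09% of all genes), and that of KO1134 was 8 with bins of 20 or 50 µm, in the thymus area alone or without bins that resembled lymph node (7.09%, 10.01%, 7.58% and 7.55% of all genes). At 2-fold or higher there was 1 of 33 in KO1308, where 13.9% of all genes reached it, and 1 of 33 in KO1134, where 10.7% did. The filter set this count: with a mean of 1 CPM, 4 of 37 targets were at 2-fold or higher in each section, beside 21.0% and 15.6% of all genes. The median ratio of the 33 targets was 0.776 in KO1308 and 0.680 in KO1134, beside 1.08 and 0.941 for all genes. Below their WT level were 25 targets in KO1308 (75.8%) and 27 in KO1134 (81.8%), as were 42.9% and 55.4% of all genes. By median ratio and with the filter of 5 CPM, the list as a whole thus sat lower than the other genes of the same bins. Most single members were reduced by less than 2-fold and several were not reduced.

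**Figure D1:**
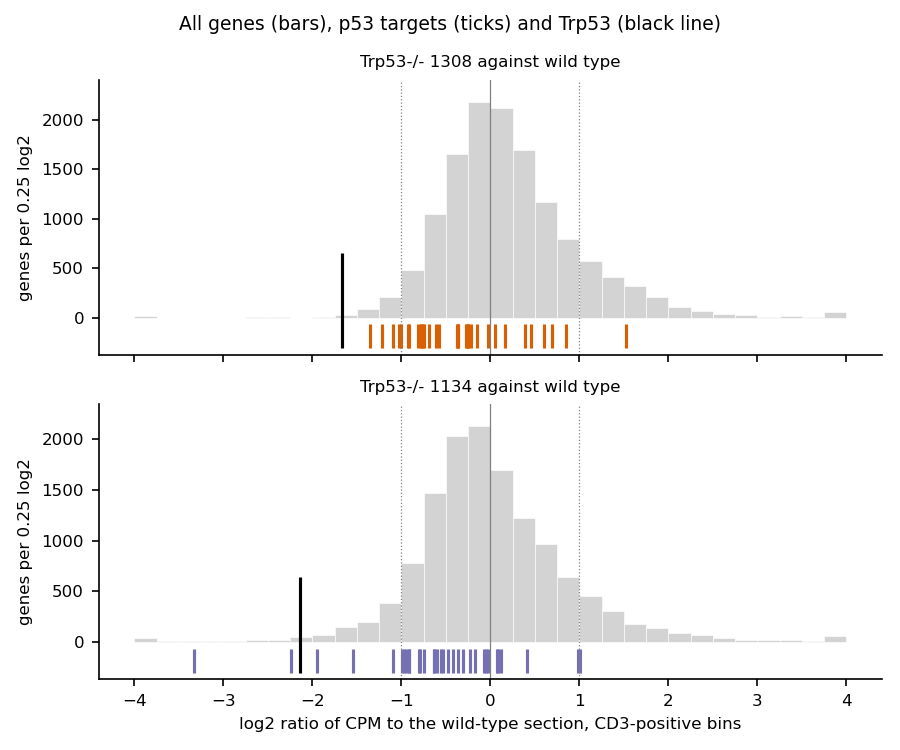
Distribution of the log2 ratio of CPM to the WT section in CD3-positive bins for all genes with a mean of at least 5 CPM (grey bars, number of genes per 0.25 log2, values beyond 4 added to the end bars), with the 33 targets as coloured ticks and Trp53 as a black line. Dotted lines mark 2-fold; most ticks lie left of 0 in both knockout sections (25 of 33 in KO1308 and 27 of 33 in KO1134).

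The feedback genes were all below WT in both knockout sections over CD3-positive bins. At like local shares of double-positive markers, described below, the intervals of KO1308 spanned 1 at each step for Ppm1d and at each step but 1 for Mdm2. Ccng1, cyclin G1, which brings a phosphatase to Mdm2, was at 65.7 CPM in KO1308, 78.8 CPM in KO1134 and 152 CPM in WT. Its ratios were 0.431 (0.391 to 0.475) and 0.517 (0.476 to 0.562). The knockout parts reached 93.8 CPM at most and the WT parts began at 148 CPM, so the levels were apart everywhere in the sections. Mdm2, the ubiquitin ligase of p53, was at 79.4, 58.3 and 102 CPM in KO1308, KO1134 and WT, with ratios of 0.780 (0.711 to 0.854) and 0.573 (0.519 to 0.630). It therefore kept more than 0.5 of its WT level without p53, and 1 part of KO1308, at 109 CPM, lay within the WT range of 93.2 to 111 CPM. Mdm4, the Mdm2 relative that masks the activating region of p53, was at 229.7, 202 and 350.5 CPM (ratios 0.655 and 0.577). Ppm1d, the phosphatase Wip1 that resets damage signalling, was at 23.0, 13.9 and 27.3 CPM, with a ratio of 0.841 (0.706 to 0.997) in KO1308 and of 0.510 (0.417 to 0.620) in KO1134.

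Of the cell cycle genes, Btg2 was at less than 0.5 of WT in both mice and Cdkn1a, the p21 inhibitor of cyclin-dependent kinases, had few UMIs. Btg2, an antiproliferative gene that promotes mRNA decay, was at 173 CPM in KO1308, 95.5 CPM in KO1134 and 369 CPM in WT, with ratios of 0.468 (0.440 to 0.496) and 0.259 (0.241 to 0.278). Cdkn1a had 58 UMIs in KO1308, 45 in KO1134 and 280 in WT, that is 8.12, 5.27 and 10.5 CPM. The ratio of KO1308 was 0.776 with an interval of 0.575 to 1.03 that spanned 1, and that of KO1134 was 0.504 (0.359 to 0.692). Its parts overlapped between WT (7.84 to 13.0 CPM) and both knockout sections, so over all CD3-positive bins Cdkn1a set the genotypes apart less well than Ccng1 or Btg2 did.

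The remaining cell cycle genes did not move together. Psrc1, a microtubule-associated protein of the mitotic spindle, was at 9.94 CPM in KO1308 and 11.8 CPM in WT. In KO1134 it was at 1.17 CPM (10 UMIs), a ratio of 0.0992 (0.0471 to 0.185). At a double-positive share of 0 to 1, described below, Psrc1 was at 4.39, 1.16 and 5.32 CPM in KO1308, KO1134 and WT. At a share of 1 to 2 it was at 11.0, 2.24 and 2.46 CPM, so the large gap of KO1134 was not seen there. Sertad1, a regulator of cyclin D kinase activity, was at 10.8, 22.2 and 20.5 CPM, lower than WT in KO1308 alone over all CD3-positive bins (ratio 0.526, 0.409 to 0.668). At like shares of double-positive markers, described below, KO1134 was also below WT. Its ratios at the first 2 steps were 0.446 (0.317 to 0.646) and 0.445 (0.294 to 0.668). Plk3, a stress-responsive kinase, was at 9.66, 6.67 and 3.36 CPM, and passed the filter only through the knockout sections. Its ratios were 2.87 (2.07 to 3.98) and 1.98 (1.40 to 2.80). At a double-positive share of 0 to 1, described below, Plk3 was at 10.6, 7.21 and 6.65 CPM in KO1308, KO1134 and WT. At a share of 1 to 2 it was at 8.91, 7.08 and 5.91 CPM. The gap to WT was thus smaller at these steps than over all CD3-positive bins. The annotation places exon bases of Tctex1d4 on the opposite strand of Plk3, and the strand setting of the counting is not given in the sources used here, so its UMIs are uncertain.

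The apoptosis genes spread from well below to above WT. Trp53inp1, a stress protein that assists p53, was at 229 CPM in KO1308, 82.0 CPM in KO1134 and 387 CPM in WT. The ratio was 0.590 (0.560 to 0.622) in KO1308 and 0.212 (0.196 to 0.229) in KO1134, so the 2 knockout sections differed from each other by more than 2-fold and both lay apart from WT. Zmat3, an RNA-binding zinc finger protein, was at 19.6, 19.7 and 37.0 CPM, with ratios of 0.530 and 0.531. All 8 of its knockout parts were below the lowest WT part of 33.0 CPM.

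Bax, which permeabilises the outer mitochondrial membrane, was at 65.3 CPM in KO1308, 72.5 CPM in KO1134 and 75.9 CPM in WT. Its ratios of 0.860 (0.776 to 0.952) and 0.955 (0.872 to 1.05) were close to WT, and its parts overlapped. Bbc3, which encodes Puma, a trigger of Bax, was at 22.0, 23.7 and 32.8 CPM (ratios 0.670 and 0.721). Its ratios by double-positive share, described below, were 0.382, 0.417, 0.823 and 0.680 in KO1308. Those of KO1134 were 0.495 and 0.568 at the first 2 steps. Pmaip1, which encodes Noxa, was at 11.5, 14.3 and 7.10 CPM, higher than WT in both sections with ratios of 1.62 (1.23 to 2.11) and 2.01 (1.59 to 2.54), the latter past 2-fold. This direction did not hold at every share of double-positive or medullary markers, as given below. Phlda3, an inhibitor of Akt signalling, was at 28.7, 20.1 and 18.9 CPM (ratios 1.52 and 1.06). By double-positive share it was below WT in KO1134 (0.607, 0.437 to 0.868, and 0.590, 0.392 to 0.883). The intervals of KO1308 spanned 1 at each step there, with ratios of 1.20, 1.20, 1.01 and 1.22. Apaf1, the scaffold of the apoptosome, was at 47.3, 51.3 and 79.5 CPM (ratios 0.595 and 0.645), and Ei24 was at 18.3, 20.4 and 31.5 CPM (ratios 0.582 and 0.646). Perp, a membrane protein of cell contacts and apoptosis, and Aen, an exonuclease, were within 5% of WT in KO1134 (ratios 0.978 and 0.965), and in KO1308 their ratios were 1.04 and 0.622. In KO1134 they moved apart at a double-positive share of 1 to 2. Perp was at 0.555 there (0.435 to 0.706) and Aen at 1.55 (1.15 to 2.09). For a share of 0 to 1 their ratios were 0.825 and 0.876, with intervals that spanned 1. Pidd1, a platform for caspase activation, was on opposite sides of WT over all CD3-positive bins, at 29.4, 15.2 and 22.4 CPM. This did not hold by double-positive share, where KO1308 was above WT at each step (1.76, 2.13, 1.56 and 1.63). KO1134 was above WT there too, at 1.75 (0.799 to 4.81) and 2.62 (1.61 to 4.42). The first ratio of both sections rests on few WT UMIs, since WT was at 7.98 CPM over 752239 UMIs at that step.

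The death receptor Fas, which triggers apoptosis from the cell surface, separated the 2 knockout mice. It was at 76.3 CPM in KO1308, 29.0 CPM in KO1134 and 84.4 CPM in WT, with ratios of 0.904 (0.822 to 0.993) and 0.344 (0.301 to 0.392). The parts of KO1308 (71.2 to 94.1 CPM) overlapped those of WT (78.5 to 87.5 CPM) and those of KO1134 (17.0 to 31.9 CPM) did not. The 4 genes of DNA repair and nucleotide supply were all below WT and none was at 0.5 of it or lower. Xpc, which recognises damaged bases for excision repair, was at 32.5, 37.0 and 55.9 CPM (ratios 0.582 and 0.662). Rrm2b, the p53-induced subunit of ribonucleotide reductase, was at 169, 193 and 218 CPM (ratios 0.773 and 0.886). Polk, a translesion polymerase, had ratios of 0.829 and 0.597, and Ercc5, a repair endonuclease, had ratios of 0.982 and 0.693.

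Sesn1 and Ddit4, both brakes on mTORC1, were low to a like degree in both knockout mice over all CD3-positive bins. Sesn1, a sestrin, was at 165 CPM in KO1308, 178 CPM in KO1134 and 337 CPM in WT, with ratios of 0.490 (0.461 to 0.521) and 0.529 (0.501 to 0.559). At a double-positive share of 0 to 1 Sesn1 was at 107, 166 and 207 CPM, so the degree was not alike there. It was at 143, 144 and 232 CPM at a share of 1 to 2. Ddit4 was at 59.1, 70.7 and 151 CPM, with ratios of 0.392 (0.354 to 0.433) and 0.469 (0.430 to 0.511). For both genes the highest knockout part (207 and 79.3 CPM) was far below the lowest WT part (329 and 147 CPM). The other sestrin on the list, Sesn2, was at 8.12, 7.61 and 7.25 CPM, with intervals of the ratio that spanned 1 in both sections. Abhd4, a lipid hydrolase, was at 17.6, 26.3 and 35.3 CPM and lay just outside 0.5 of WT in KO1308 (0.5003, 0.412 to 0.603). Rap2b, a small GTPase, had ratios of 0.571 and 0.851, and Dcxr, a xylulose reductase, 0.836 and 0.780. The direction of Dcxr did not hold at each double-positive share. At 0 to 1 it was at 26.1, 31.5 and 19.9 CPM in KO1308, KO1134 and WT, and at 1 to 2 at 33.6, 37.7 and 24.1 CPM. At 2 to 3 it was at 33.6 CPM in KO1308 and 31.4 CPM in WT, and at 3 to 4 at 20.7 and 32.9 CPM. Fdxr, the ferredoxin reductase of mitochondria, was on opposite sides of WT with ratios of 1.37 and 0.808. Pltp, a phospholipid transfer protein, was above WT in both (1.80 and 1.33). Exon bases of Ctsa lie on the opposite strand of Pltp, so its UMIs carry the same uncertainty as those of Plk3. Exon bases are also shared with less known annotated genes by Cdkn1a, Ei24, Rrm2b and Rap2b (opposite strand) and by Bax (same strand).

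**Figure D2:**
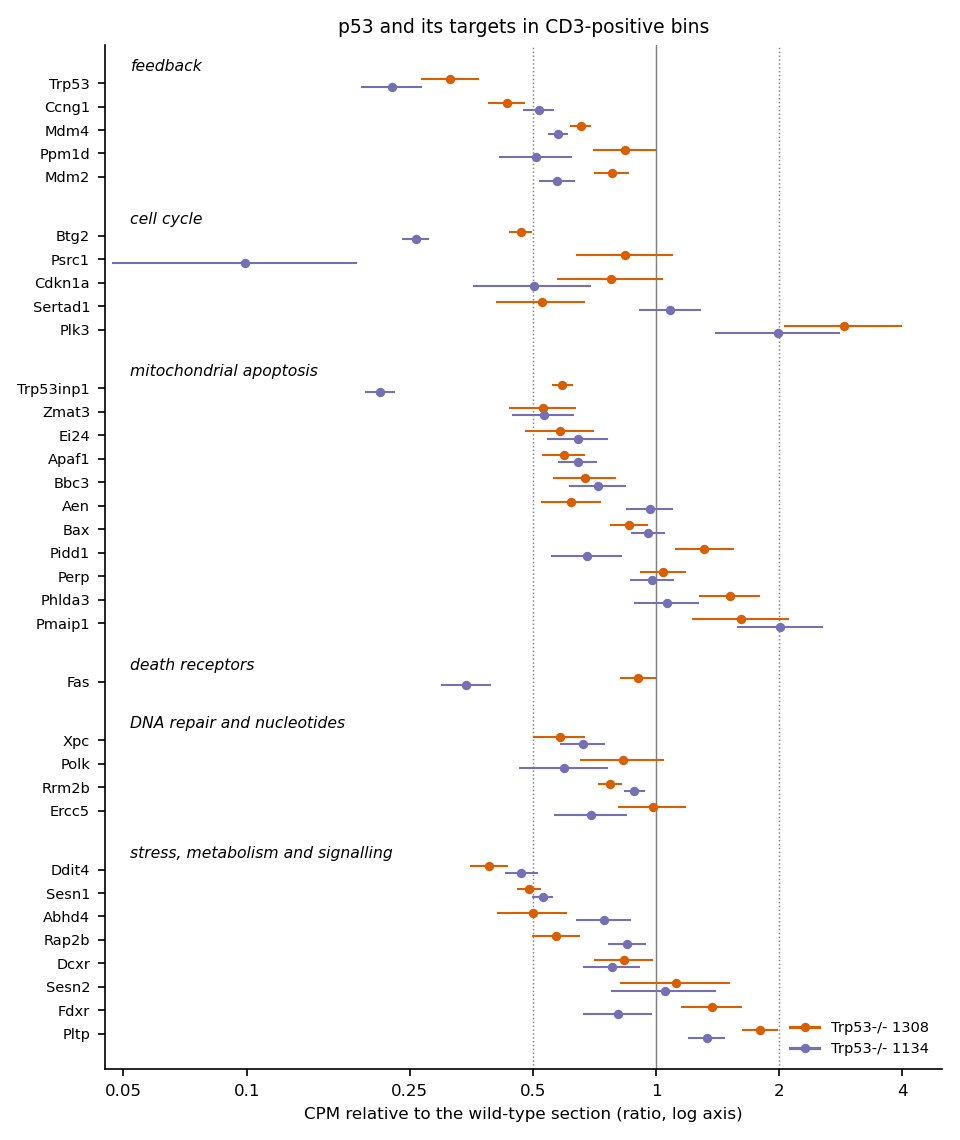
Ratio of CPM to the WT section in CD3-positive bins for Trp53 and the 33 targets above 5 CPM, grouped by role, on a log axis; points are the ratios of KO1308 (orange) and KO1134 (purple) and bars their exact 95% intervals for counting error. Ccng1, Btg2, Trp53inp1, Zmat3, Sesn1 and Ddit4 lie well to the left of 1 in both sections, Bax, Perp and Sesn2 close to it and Plk3 and Pmaip1 to its right.

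**Figure D3:**
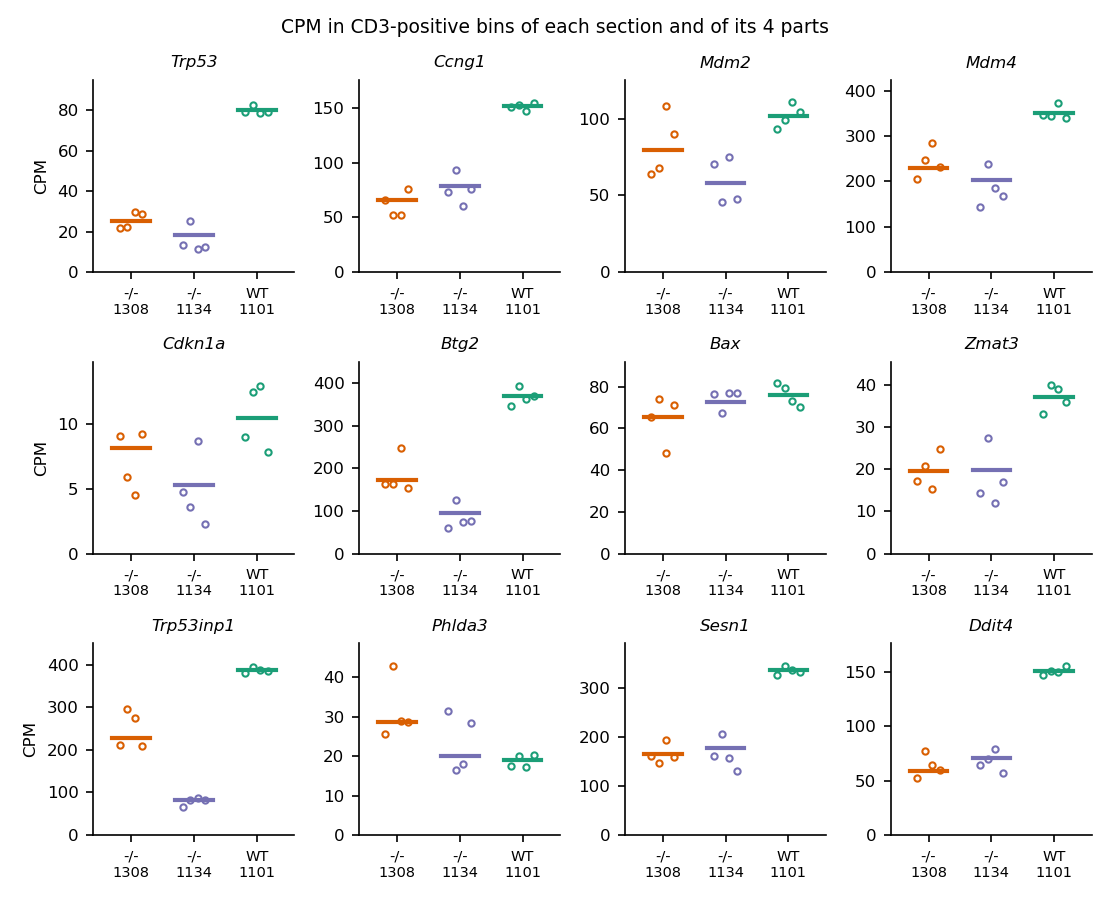
Level in CPM (vertical axes from 0) of 12 genes in CD3-positive bins of each section; horizontal bars are the whole section and open circles its 4 parts cut at the median bin position. For Trp53, Ccng1, Sesn1 and Ddit4 all circles of both knockout sections lie below all circles of WT, and for Cdkn1a and Bax they overlap.

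Counted over the list, all 4 parts were below all 4 WT parts for 16 of the 33 targets in KO1308, where this held for 19.4% of all genes, and for 17 of 33 in KO1134, where it held for 29.2%. All 4 parts were above all 4 WT parts for 4 targets in KO1308 (Plk3, Phlda3, Fdxr and Pltp, beside 28.0% of all genes) and for 1 in KO1134 (Pmaip1, beside 18.7%). Parts of a section come from the same mouse and capture area and are not replicates.

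The 5 targets below the level filter in CD3-positive bins were Plk2, Tnfrsf10b, Eda2r, Gdf15 and Ak1. Plk2, a kinase of centriole duplication, was at 4.76, 5.74 and 1.94 CPM in KO1308, KO1134 and WT (ratios 2.45 and 2.95). At a double-positive share of 0 to 1, described below, it was at 7.65, 6.12 and 6.65 CPM. At a share of 1 to 2 it was at 8.13, 2.24 and 5.42 CPM, so the excess of KO1134 was not seen at these steps. Gdf15, a secreted stress cytokine, was at 2.52, 4.22 and 1.16 CPM (ratios 2.18 and 3.64). Tnfrsf10b, the receptor for the death ligand Trail, had 36, 41 and 86 UMIs, and Ak1, an adenylate kinase, was at 1.82, 1.41 and 0.598 CPM (ratios 3.05 and 2.35, from 13, 12 and 16 UMIs). Eda2r, the receptor of ectodysplasin A2, had no UMI in the CD3-positive bins of either knockout section and 6 UMIs in those of WT. A count of 0 allows up to 0.420 CPM in KO1308 and 0.351 CPM in KO1134, above the WT level of 0.224 CPM, so a difference in Eda2r was not detectable in these bins at this depth. Outside the thymus area it had 5 UMIs in WT (2.28 CPM), 2 in KO1134 (0.340 CPM, ratio 0.149, 0.0142 to 0.913) and 0 in KO1308, which allows up to 0.806 CPM (ratio interval up to 0.644). These few UMIs were thus lower than WT beyond counting error, in tissue that was not of 1 kind in the 3 sections.

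The other bins are those without a CD3 call, and some held CD3 UMIs. All 3 CD3 genes were under 1 on the log scale in 8294 of 9760 in KO1308, 3727 of 8627 in KO1134 and 6356 of 9949 in WT. In these, 6 of 35 targets were at 0.5 of WT or lower in KO1308 (5.54% of all genes) and 9 of 35 in KO1134 (10.7%). Of the 33 targets above 5 CPM in all other bins, 4 were that low in KO1308 (12.1%, against 4.71% of all 13540 genes). In KO1134 10 were (30.3%, against 7.09%). At 2-fold or higher were 2 targets in KO1308 (Phlda3 and Plk3, against 14.4% of all genes) and 0 in KO1134 (against 10.3%). The median ratios of the targets were 0.715 and 0.662. With no filter beyond 1 UMI in WT, 5 of 38 targets were at 0.5 of WT or lower in KO1308 and 10 of 38 in KO1134. Of all genes 15.5% and 15.6% then were. Ccng1 was at 66.2, 75.8 and 154 CPM in KO1308, KO1134 and WT, Sesn1 at 132, 158 and 318 CPM and Ddit4 at 57.3, 66.3 and 155 CPM. Ccng1 and Ddit4 were close to their level in the CD3-positive bins of the same section, and Sesn1 was lower than there. Of the 33 targets, the one with the largest fold between the bin classes of both knockout sections was Phlda3, which was at 47.8, 32.0 and 18.7 CPM in other bins.

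Within a section some targets differed between CD3-positive and other bins. The interval of the ratio excluded 1 for 12 of 33 targets in KO1308, 11 in KO1134 and 6 in WT. The share of all genes for which this held is not given here, and the width of an interval depends on the UMIs. These counts are therefore not read as a feature of the list. The median ratio of CD3-positive to other bins over the 33 targets was 1.05 in KO1308, 1.04 in KO1134 and 1.02 in WT, beside 1.05, 0.986 and 0.994 for all genes, and the ratios ran from 0.601 to 1.42, from 0.629 to 1.32 and from 0.686 to 1.15. Btg2 and Sesn1 were higher in CD3-positive bins of all 3 sections, with ratios of 1.28, 1.18 and 1.06 for Btg2. Phlda3 had ratios of 0.601 in KO1308, 0.629 in KO1134 and 1.01 in WT. The summed white adipocyte markers, led by Fabp4, were at 2574 CPM in other bins of KO1308, 1275 CPM in those of KO1134 and 109.5 CPM in those of WT. They were at 536, 666 and 92.8 CPM in CD3-positive bins. The 2 brown adipocyte markers summed to 378, 109 and 0.362 CPM in other bins, with Ucp1 at 0 in those of WT. Their part in the Phlda3 values was not tested.

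The cell composition of the sections differed along with the targets. The 5 T cell markers summed to 2441, 1679 and 2936 CPM in CD3-positive bins of KO1308, KO1134 and WT and to 759, 710 and 1424 CPM in other bins. The 7 markers of double-positive thymocytes, the immature T cells that fill the thymic cortex, summed to 2064 CPM in CD3-positive bins of KO1308, 585 CPM in KO1134 and 3600 CPM in WT, and all 7 were below WT in both knockout sections. The most abundant was Dntt in both knockout sections and Cd8b1 in WT. The 4 markers of medullary epithelium, led by Ccl21a, summed to 670, 697 and 173 CPM, the B cell markers to 133, 288 and 44.6 CPM and the macrophage markers, led by Lyz2, to 929, 1753 and 664 CPM. These values moved with the genotype, and with which of the 2 knockout sections was the lower, for Btg2, Trp53inp1 and Fas.

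Levels were also read at a like local share of the double-positive markers, per 1000 UMIs of the 7 by 7 bins around each bin. The steps were 0 to 1, 1 to 2, 2 to 3 and 3 to 4, and bins with a share of 4 or more were left out. They took all tissue bins, with or without a CD3 call. At the lowest step 29.1% of the bins were CD3-positive in KO1308, 28.4% in KO1134 and 55.8% in WT. Where ratios of the steps are set beside those of all CD3-positive bins, the sets of bins therefore differ in this too. The lowest step held 36.3% of the tissue bins of KO1308, 92.8% of those of KO1134 and 2.66% of those of WT (722 bins). The highest held 15.6% of those of KO1308 and 52.8% of those of WT. Bins with a like share still differed in other markers, whose part in the values was not tested. From the lowest step up, the 4 medullary markers summed to 1313, 1142, 461 and 85.4 CPM in WT and to 1116, 700.3, 435 and 271 CPM in KO1308, and at the first 2 steps to 726 and 146 CPM in KO1134. The 3 markers of cortical epithelium were higher in the knockout sections at those 2 steps (832 and 1455 CPM in KO1308, 933 and 1401 CPM in KO1134, 277 and 566 CPM in WT), and so were those of plasma cells (3013 and 4448, 3024 and 4148, 247 and 495 CPM). In WT, Btg2 was at 149, 214, 280 and 366 CPM in bins with shares of 0 to 1, 1 to 2, 2 to 3 and 3 to 4, and Trp53inp1 at 156, 205, 290 and 380 CPM. In KO1308 the same steps held 84.0, 129, 202 and 255 CPM of Btg2 and 102, 189, 263 and 337 CPM of Trp53inp1. Both genes thus increased with this share in both sections. KO1308 was below WT at each step, apart from Trp53inp1 at the step of 1 to 2, whose interval spanned 1 (0.818 to 1.04). The ratios of KO1308 were 0.564, 0.603, 0.720 and 0.695 for Btg2 and 0.654, 0.924, 0.909 and 0.886 for Trp53inp1, closer to 1 than over all CD3-positive bins (0.468 and 0.590). KO1134 filled only the steps up to 2, with 85.8 and 74.9 CPM of Btg2 and 78.3 and 95.1 CPM of Trp53inp1, below WT at both. Its ratios there were 0.577 and 0.350 for Btg2 and 0.503 and 0.464 for Trp53inp1, beside 0.259 and 0.212 over all CD3-positive bins. Fas, at 61.2, 65.5, 76.0 and 82.8 CPM in WT, was at 47.4, 56.1, 82.0 and 95.3 CPM in KO1308, with ratios of 0.776, 0.857, 1.08 and 1.15. The intervals of the first 3 spanned 1, and that of the last was 1.01 to 1.30. In KO1134 it was at 25.9 and 23.5 CPM, far below WT at both steps. Ppm1d of KO1308 had ratios of 0.992, 0.884, 1.07 and 1.00 and Mdm2 of 0.825, 0.790, 1.02 and 0.912, and the intervals spanned 1 except for Mdm2 at the step of 1 to 2 (0.650 to 0.960). Ccng1 was nearly level in WT (137 to 154 CPM) and at 56.9 to 72.5 CPM in KO1308, so its gap to WT was present at each step. Pmaip1 was at 46.5, 32.5, 16.6 and 4.87 CPM in WT, at 17.1, 11.8, 11.6 and 5.59 CPM in KO1308 and at 13.6 and 6.34 CPM in KO1134. Its ratios were 0.368 (0.251 to 0.553), 0.363 (0.243 to 0.538), 0.699 (0.457 to 1.06) and 1.15 (0.646 to 1.92) in KO1308, and 0.293 (0.207 to 0.427) and 0.195 (0.107 to 0.336) in KO1134. At shares under 2 it was therefore lower than WT, the opposite of its direction over all CD3-positive bins, in bins where the medullary markers were lower than in WT as well. Cdkn1a was at 29.2, 40.4, 15.6 and 8.79 CPM in WT, at 13.3, 9.18, 6.24 and 5.91 CPM in KO1308 and at 7.21 and 3.73 CPM in KO1134. It was below WT at each step but the last, where the ratio of KO1308 was 0.673 (0.391 to 1.09) from 18 UMIs against 213, and it too was read in bins whose medullary markers differed from WT as given above.

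Whether a target follows the cortex or the medulla could be read within the sections, by the local share of the 4 medullary markers among the UMIs of the 7 by 7 bins around each bin; this comparison was chosen after the data had been examined. In WT, Cdkn1a was at 8.73 CPM where this share was under 0.25 per 1000 UMIs, 11.1 CPM from 0.25 to 0.5, 23.9 CPM from 0.5 to 1 and 39.6 CPM (31.2 to 49.5) from 1 upwards. KO1134 stayed between 3.20 and 4.58 CPM up to a share of 1 and reached 15.1 CPM (12.6 to 18.1) above it, and KO1308 had 7.11 to 8.42 CPM and then 13.3 CPM (10.5 to 16.8). The ratios of KO1308 were 0.920, 0.755, 0.297 and 0.337 from the lowest to the highest share, and those of KO1134 were 0.492, 0.411, 0.134 and 0.383. In KO1308 the gap to WT was thus small where medullary markers were sparse, and in KO1134 it was present at each share. Pmaip1 behaved alike in WT, at 4.93, 8.20, 30.9 and 32.3 CPM, and also increased with the share in KO1308 (4.31 to 23.6 CPM) and in KO1134 (6.07 to 25.4 CPM). Its excess over WT among all CD3-positive bins was not seen in medullary bins, where its ratios were 0.731 (0.536 to 1.01) in KO1308 and 0.789 (0.591 to 1.07) in KO1134.

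Other members followed other patterns. Btg2 decreased in WT from 378 CPM at the lowest medullary share to 186 CPM at the highest, and Trp53inp1 from 391 to 180 CPM. In KO1308 both were highest at a share of 0.25 to 0.5 (189 and 257 CPM) and lowest in medullary bins (106 and 134 CPM), while KO1134 stayed between 73.3 and 110 CPM for Btg2 and between 76.1 and 86.1 CPM for Trp53inp1. In medullary bins the ratios were 0.567 and 0.452 for Btg2 and 0.745 and 0.423 for Trp53inp1. Each was closer to 1 than over all CD3-positive bins, although medullary bins were taken with or without a CD3 call. Trp53 itself was level in WT, between 72.8 and 84.3 CPM, as was Ccng1, between 141 and 154 CPM. Their ratios in medullary bins were 0.392 and 0.240 for Trp53 and 0.506 and 0.647 for Ccng1. Ddit4 increased in WT from 142 to 228 CPM and stayed between 52.5 and 74.0 CPM in both knockout sections, so that its medullary ratios were 0.279 and 0.325.

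**Figure D4:**
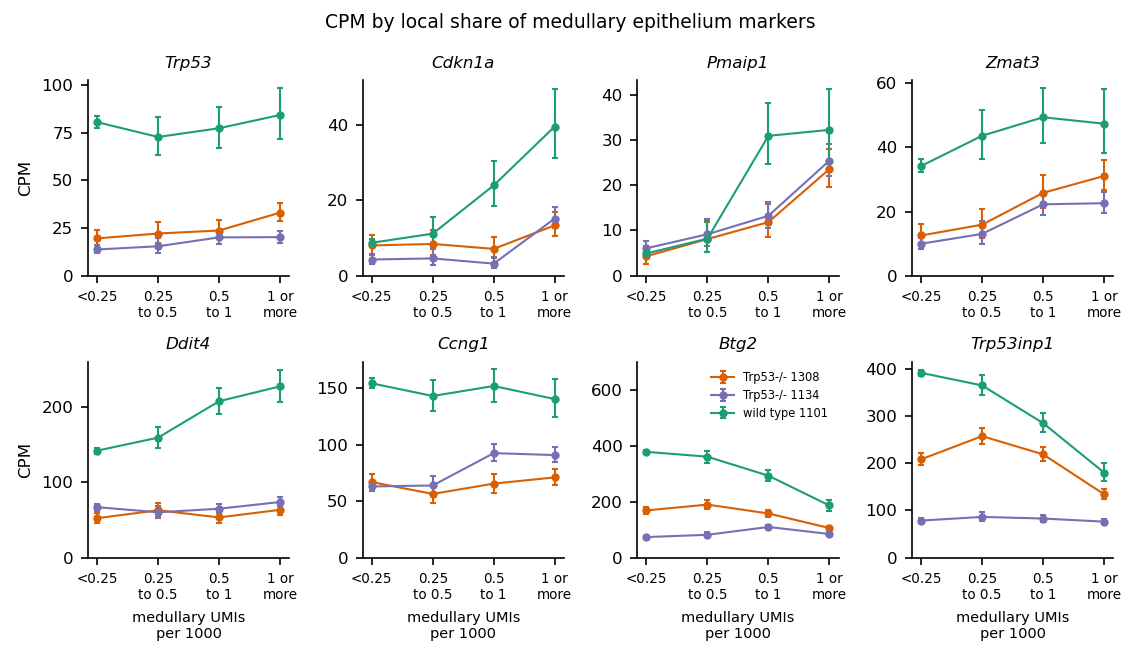
Level in CPM (vertical axes from 0) of 8 genes in bins grouped by the local share of medullary epithelium markers (UMIs per 1000, horizontal axes), for the 3 sections; error bars are exact 95% Poisson intervals. Cdkn1a and Pmaip1 are highest at the right in every section, Btg2 and Trp53inp1 decline to the right in WT, and Trp53, Ccng1 and Ddit4 of WT lie above both knockout sections throughout.

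In the medullary bins as a whole (5440 bins with 5471316 UMIs in KO1308, 2937 with 8055426 in KO1134 and 2034 with 1921603 in WT), 34 targets passed the filter. Of these, 3 were at 0.5 of WT or lower in KO1308 (8.82%, against 3.34% of all 13883 genes) and 6 in KO1134 (17.6%, against 4.62%). None was at 2-fold or higher in either section, where 7.6% and 4.38% of all genes were. The medullary markers summed to similar levels in these bins (1553, 1744 and 1391 CPM), the double-positive markers to 672, 339 and 1031 CPM, the plasma cell markers to 3310, 2790 and 332 CPM and the macrophage markers to 1602, 2251 and 2181 CPM. The part of these differences in the ratios was not tested.

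Summed over the 38 targets, the level in CD3-positive bins was 1907 CPM in KO1308 (1875 to 1939), 1630 CPM in KO1134 (1603 to 1657) and 2924 CPM in WT (2904 to 2945). Trp53inp1, Btg2, Mdm4 and Sesn1 made up 49.4% of the UMIs of this sum in WT, and 63.7% of the difference to WT in KO1308 and 68.5% in KO1134 came from them. Over the map of each section in blocks of 135 µm with at least 2000 UMIs, the median block was at 1851 CPM in KO1308 (770 blocks), 1569 CPM in KO1134 (532 blocks) and 2899 CPM in WT (1241 blocks). The 5th percentile of the WT blocks was 2139 CPM, and 72.7% of the blocks of KO1308 and 98.5% of those of KO1134 were under it. The lower sum was therefore spread over the knockout tissue and was not a matter of a few places.

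**Figure D5:**
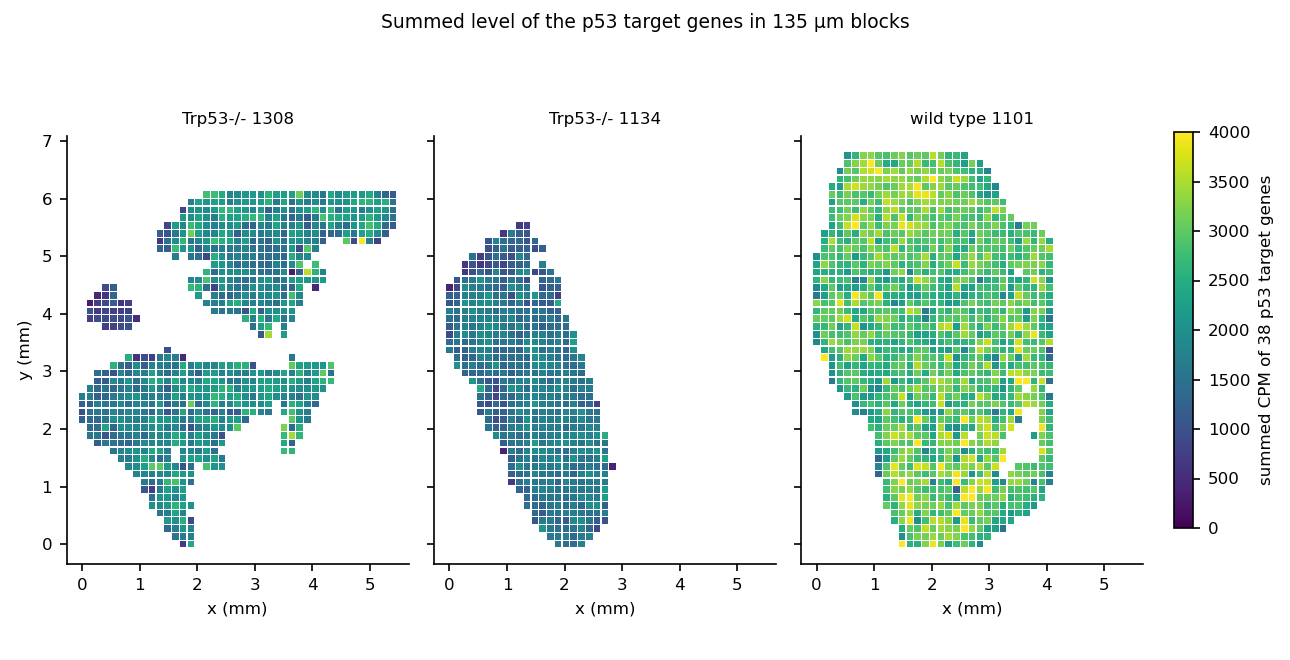
Summed CPM of the 38 targets (colour, brighter for higher) in blocks of 135 µm over the tissue of each section, with position in mm on both axes. Most WT blocks lie above 2139 CPM (the 5th percentile of WT), and 98.5% of the blocks of KO1134 and 72.7% of those of KO1308 lie below it.

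Lists of other genes of the pathway were read in the same way. Of 17 regulators of p53 above 5 CPM in CD3-positive bins, 0 were at 0.5 of WT or lower and 2 at 2-fold or higher in KO1308 (median ratio 1.03), and 1 and 1 in KO1134 (0.750). Of all genes, 2.88% and 13.9% were in KO1308 and 7.51% and 10.7% in KO1134, and the same shares hold for the lists that follow. Cdkn2a, which encodes the p16 and p19Arf inhibitors and is known to be restrained by p53, was at 43.7, 54.3 and 0.972 CPM in KO1308, KO1134 and WT (26 UMIs in WT), and passed the filter only through the knockout sections. Its ratios were 45.0 and 55.9 in CD3-positive bins and 6.47 and 4.74 in medullary bins. It was thus 1 of the 2 regulators counted at 2-fold or higher in KO1308 and the only such regulator in KO1134. Usp7, the deubiquitinase of Mdm2 and p53 and the most abundant of the list, was at 318, 122 and 266 CPM, with ratios of 1.20 and 0.458. Wrap53, which starts beside Trp53 on the opposite strand, was at 90.3, 69.4 and 46.1 CPM, above WT in both (ratios 1.96 and 1.51). The annotation lists no exon bases that Trp53 shares with another gene. Crebbp, a coactivator of p53, had ratios of 0.590 and 0.655, and Ppp1r13l, the inhibitor iAspp, was past 2-fold in KO1308 (2.07) and at 0.977 in KO1134.

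A further 21 genes known as p53 targets were not lower than WT as a group in CD3-positive bins. Of the 14 above 5 CPM, 0 were at 0.5 of WT or lower and 3 at 2-fold or higher in KO1308, and 2 and 2 in KO1134, and the median ratios were 1.28 and 1.30 (0.887 and 0.846 in medullary bins, where 16 were above 5 CPM). Rps27l, a ribosomal protein relative and the most abundant, was at 326, 364 and 445 CPM (ratios 0.732 and 0.819). Trp53i11 had ratios of 0.587 and 0.435 and Gadd45a, a growth arrest gene, of 0.861 and 0.455. Dram1, an autophagy gene (3.42 and 1.97), Steap3, an iron reductase (2.53 and 5.25), Pvt1, a long non-coding RNA (2.11 and 1.80), and Cd82, a tetraspanin (1.41 and 2.51), were above WT. In medullary bins Dram1 was at 1.34 and 0.784 of WT, Cd82 at 0.882 and 1.41 and Pvt1 at 1.43 and 1.12.

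The 14 mitotic genes that p53 represses by way of p21 and the DREAM complex were not above WT as a group in CD3-positive bins. None was at 2-fold or higher in either section, 0 of 14 were at 0.5 of WT or lower in KO1308 (2.88% of all genes) and 7 of 14 were in KO1134 (7.51%) (median ratios 0.915 and 0.480). Mki67, the proliferation marker, was at 360, 254 and 457 CPM (ratios 0.787 and 0.557) and Ccnb2, cyclin B2, at 143, 61.6 and 223 CPM (ratios 0.639 and 0.276). Top2a had ratios of 0.908 and 0.328. In medullary bins the median ratios of the 14 were 1.20 and 0.860, and Bub1, a kinase of the spindle checkpoint, was past 2-fold in both sections (2.97 and 2.08). Of 10 housekeeping genes, 1 was at 0.5 of WT or lower in KO1308 and none in KO1134, with ratios that ran from 0.451 (Gapdh) to 1.63 (Actb) in KO1308 and from 0.708 (Gapdh) to 1.96 (Rplp0) in KO1134. Ratios of single members within these ranges were no farther from 1 than those of genes often used as references.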

How the data were processed

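Per the labels the 3 thymus sections were profiled on BMKMANU S1000 slides, and the authors deposited, for each section, whole-number UMI counts per gene and barcoded spot with the position of every spot. The genome build named in the submitters' processing notes is GRCm38; reads were run through BSTMatrix and STAR, and the strand setting is not given in the sources used here. Spots were summed into bins of 27 µm (spot spacing 4.8 µm), and bins with at least 300 genes, at most 30% mitochondrial UMIs and a connected group of at least 200 bins were kept. CPM, ratios and exact intervals were computed with scipy 1.17.1 and numpy 2.4.6, and the interval script was tested on simulated data. Barcodes were shared between libraries (13503 sequences between KO1308 and WT, 5841 between KO1134 and WT and 5486 between the knockout sections) and were read within their own section. Floors for a count of 0 are 3 counts per section. The thymus area held bins whose 7 by 7 surroundings reached 50% of the section's mean share of 6 thymic genes.

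Named genes were Trp53, 10 canonical targets, every target past 2-fold in a knockout section and those below 5 CPM; other targets are given by role. The members, lists and rules were chosen with earlier results of these data known. Gene positions are from GENCODE for GRCm38. There were 17 alternatives, 2 of them added after the data had been examined.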

Additional observations from a re-analysis of the deposited data

How the results depend on the processing

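Of 300 values recomputed under alternatives, 210 stayed close to the main value and 90 moved. The causes were not tested. Many of these values were counts, which have no direction to change. Beside all genes the order of the counts could turn. With no filter beyond 1 UMI in WT, 5 and 6 of 38 targets in CD3-positive bins of KO1308 and KO1134 were at 0.5 of WT or lower. Of all genes 19.0% and 23.0% were, a larger share than of the targets. No paired analysis was possible because there was only 1 WT section. In CD3-positive bins of KO1134 the targets at 0.5 of WT or lower numbered 8 with bins of 20 or 50 µm, in the thymus area alone or without lymph-node-like bins, and 16 with all 3 CD3 genes required or a fold of 1.5, where 36.9% and 19.9% of all genes were that low. Those at 2-fold or higher numbered 2 with bins of 20 µm, at least 500 genes per bin, the reduced denominator, scaling to the median of all genes or a fold of 1.5, 0 with bins of 50 µm or in medullary bins, 4 with a mean of 1 CPM or no filter, and 5 with all 3 CD3 genes (22.4% of all genes). The median ratio of KO1134 was 0.598 with bins of 50 µm, 0.497 with all 3 CD3 genes and 0.750 with the reduced denominator, and its Trp53 ratio was 0.280 with bins of 50 µm, 0.155 without lymph-node-like bins and 0 with all 3 CD3 genes, which left 24 bins with 47810 UMIs.

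In CD3-positive bins of KO1308 the lower targets numbered 7 when scaled to the median of all genes and 14 at a fold of 1.5 (10.9% of all genes), and the higher ones 3 with all 3 CD3 genes, 4 with a mean of 1 CPM, no filter or a fold of 1.5 and 0 with a mean of 10 CPM. Its median ratio was 0.690 with all 3 CD3 genes and 0.670 with a mean of 10 CPM, and its Trp53 ratio 0.512 with all 3 CD3 genes and 0.370 in medullary bins. For the mean of both knockout sections, the lower targets were 14 at a fold of 1.5, and the higher ones 2 with bins of 20 µm or all 3 CD3 genes, 0 with bins of 50 µm, a mean of 10 CPM or medullary bins, 4 with a mean of 1 CPM or no filter and 3 at a fold of 1.5.

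In other bins of KO1134 the lower targets were 6 in medullary bins (6.10% of all genes) and 17 at a fold of 1.5 (19.9% of all genes). The higher ones were 1 with bins of 50 µm, 500 genes per bin, all 3 CD3 genes or medullary bins, 2 with a CD3 call by 1 UMI, with all 3 CD3 genes low or the reduced denominator, and 3 with a mean of 1 CPM, no filter or a fold of 1.5. Its median ratio was 0.703 in the thymus area, 0.701 without lymph-node-like bins, 0.762 with the reduced denominator, 0.720 with a mean of 1 CPM, 0.713 with no filter and 0.722 in medullary bins, and its Trp53 ratio 0.184 with a CD3 call by 1 UMI and 0.267 in medullary bins. In other bins of KO1308 the lower targets were 12 at a fold of 1.5 (15.6% of all genes). The higher ones were 1 with bins of 20 µm, a mean of 10 CPM, scaling to all genes or medullary bins, 0 in the thymus area and 4 with a mean of 1 CPM, no filter or a fold of 1.5. Its median ratio was 0.783 in the thymus area, 0.801 with the reduced denominator, 0.785 with a mean of 1 CPM and 0.777 with no filter, and its Trp53 ratio 0.431 in medullary bins. For the knockout mean the lower targets were 2 in medullary bins (3.60% of all genes) and 15 at a fold of 1.5. The higher ones were 2 with bins of 50 µm, 500 genes per bin, a CD3 call by 1 UMI or all 3 CD3 genes low, 0 in the thymus area, 3 with the reduced denominator and 4 with a mean of 1 CPM, no filter or a fold of 1.5. Leaving out 1 knockout section gave 4 to 10 lower and 0 to 2 higher targets in other bins, with 10 and 0 for KO1134 alone.

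The shares of all genes moved as well. Over the alternatives that kept a fold of 2, the share at 2-fold or higher ran from 5.09% to 22.4% in CD3-positive bins of KO1134, from 9.13% to 24.1% in those of KO1308, from 6.70% to 16.0% in other bins of KO1134 and from 9.69% to 22.3% in those of KO1308. For the mean of both knockout sections it ran from 6.42% to 21.6% in CD3-positive and from 7.42% to 19.6% in other bins. At a fold of 1.5 the share of that mean that was higher was 22.4% in CD3-positive and 22.5% in other bins, and the share that was lower at a fold of 1.5 was 11.5% and 14.3%. For KO1308 the higher share at that fold was 25.2% in CD3-positive and 24.9% in other bins. In KO1134 it was 20.0% and 19.9%. With a fold of 2, the lower share in CD3-positive bins ran from 5.83% to 36.9% in KO1134. In KO1308 it ran from 2.53% to 19.0%. For other bins the ranges were 5.64% to 15.6% in KO1134 and 3.63% to 15.5% in KO1308.

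The reduced denominator left out mitochondrial, ribosomal, immunoglobulin and haemoglobin genes. It moved the median of all genes in KO1134 by 0.14 on the log2 scale in CD3-positive bins and 0.12 in other bins. Requiring all 3 CD3 genes moved it by -0.24 in KO1134, and a mean of 1 CPM by 0.11 in both bin classes of KO1308. At the deposited depth, targets under 5 CPM rest on few UMIs, and 1 WT section gives no spread between WT mice.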

Other observations

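Members were also compared between the CD3-positive bins of the thymus area and the bins outside it. The tissue outside was not of 1 kind. Of its bins, 1125 of 2526 resembled lymph node in KO1134, 448 of 2747 in KO1308 and 0 of 2415 in WT. The 6 markers of white adipocytes summed to 3978 CPM there in KO1134, 6036 CPM in KO1308 and 108 CPM in WT, led by Fabp4, with Plin1 and Lep at 0 in WT. The 7 double-positive markers summed to 212, 278 and 1025 CPM. The part of these differences in the ratios was not tested. Several members had the same direction in all 3 sections. Pidd1 was at 7.53 CPM in KO1308, 4.42 CPM in KO1134 and 10.02 CPM in WT outside, and 4.28, 3.88 and 2.29 times higher in the CD3-positive bins of the thymus area. Cdkn1a was lower in the CD3-positive bins of the thymus area than outside it in all 3 sections (ratios 0.499, 0.376 and 0.279), and so was Phlda3 (0.361, 0.393 and 0.488) and Pmaip1 (0.546, 0.623 and 0.152). Psrc1 was 6.89 times higher inside in KO1308 and 2.96 times in WT, and at 1.29 CPM inside and 1.02 CPM outside in KO1134. Trp53 differed little between the places, with ratios of 0.859, 0.797 and 1.05.

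Ak1 was at 10.5 CPM outside the thymus area in KO1308, 5.45 CPM in KO1134 and 2.73 CPM in WT, and at 1.43, 1.29 and 0.509 CPM in the CD3-positive bins of the thymus area.

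For other members the ratio of inside to outside, with an outside that differed as above, was not alike in the sections. For Ddit4 it was 1.18 in KO1308 (0.991 to 1.42), 1.29 in KO1134 (1.12 to 1.49) and 0.645 in WT (0.587 to 0.709), and for Bbc3 1.27 (an interval that spanned 1), 1.66 (1.29 to 2.16) and 0.709 (0.576 to 0.882). Perp was at 0.507 in WT (0.433 to 0.597), with ratios of 1.16 in both knockout sections whose intervals spanned 1. Pltp was at 1.76 (1.49 to 2.09), 1.49 (1.28 to 1.74) and 0.945 (0.780 to 1.16). Ccng1 was at 0.798 (0.686 to 0.930), 0.804 (0.713 to 0.907) and 1.11 (0.985 to 1.25). The differences between sections were not tested.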
